A study of Mus musculus with 24 samples.

Results

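Mesenteric arteries of control mice were compared 3 months and 16 days after a course of tamoxifen. The control genotype, ieCre, carries a tamoxifen-inducible Cre recombinase driven by the endothelium-specific Tie2 promoter and no endothelin-1 transgene. Of the 24 libraries in the study, 12 come from ieCre mice: 6 mice killed 3 months after tamoxifen (long term) and 6 killed 16 days after it (short term). The other 12 libraries come from ieET-1 mice, which carry the same Cre and in addition overexpress human endothelin-1, again 6 at 3 months and 6 at 16 days. All mice were male, were 10 to 12 weeks old when tamoxifen began and received 1 mg/kg/day subcutaneously for 5 days. The strain is not given in the sources used here. No mouse free of tamoxifen was included, so the time since tamoxifen and the age of the mice at death rise together and cannot be told apart. The 2 ieCre groups also share no animal ID, with 8088, 8089 and the 94xx mice 9485, 9486, 9487 and 9491 at 3 months, against 8, 10, 8754, 9955, 9957 and 9958 at 16 days. The ID ranges used below were drawn from these numbers, and the labels name no cohort. The range called 87xx to 99xx leaves out the 94xx mice, although their IDs lie within that span. As drawn, no range is shared by the 2 groups. Time and any cohort of animals that these ranges stand for therefore cannot be told apart either.

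Mesenteric arteries are small muscular vessels that feed the gut and set much of the resistance to blood flow. Their wall is a lining of endothelium, a media of contractile smooth muscle and an adventitia of fibroblasts in collagen, with fat packed around the outside. The fibrillar collagens give the wall tensile strength, and elastic fibres built of elastin on a fibrillin scaffold give it recoil. Vascular matrix proteins turn over slowly once the vessel has matured, and transcripts for fibrillar collagens and elastic fibre proteins are high during growth and fall in the adult. The fat around these vessels is mainly white adipose tissue, which secretes leptin and other adipokines.

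RNA was made from whole dissected arteries, ribosomal RNA was removed, and stranded total RNA libraries were sequenced. Values are the normalized signal of the deposited table, in which the reads of each gene are scaled by the size of their library, and are not divided by gene length. The 12 ieCre libraries held 9733614 to 16181605 reads. Contractile smooth muscle genes were abundant in every library: the summed signal of the 20 genes listed was 17036 to 34059 at 3 months and 21586 to 26778 at 16 days. Endothelial genes (29, summed signal 4563 to 5730 at 3 months and 4479 to 5803 at 16 days) were also present throughout. Transcripts of other organs were present too. Pancreatic enzyme genes reached a summed signal of 614 to 42684 at 3 months and 142 to 39371 at 16 days, and adrenal cortex genes 75.7 to 221 at 3 months and 81.1 to 679 at 16 days. In mouse 9491 at 3 months and mouse 9955 at 16 days, 11.5% and 26.6% of reads fell on Gm42418 (an annotated gene that lies over a ribosomal RNA repeat), against at most 1.42% in the other 10. In bulk tissue, fewer cells of a type and less RNA per cell cannot be told apart.

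A total of 480 of 14544 tested genes, or 3.3%, passed an adjusted p of 0.05 between the 2 times in limma's moderated test with Benjamini-Hochberg adjustment. Of these, 281 (1.93% of genes tested) were higher and 199 (1.37%) were lower at 3 months. Before adjustment 2610 genes had a p under 0.05. On the log2(signal + 1) scale the median difference was 0.55 among the higher genes and -0.66 among the lower. On that scale 31 genes rose and 35 fell by at least 1. The added 1 shrinks changes of low genes, so these are not counts of 2-fold changes in signal. The values of the 6 and 6 mice did not overlap for 143 of the higher and 114 of the lower genes, and for 2.61% of all genes tested. Protein-coding genes made up 263 of the higher and 185 of the lower genes. Of 171 long intergenic noncoding RNAs tested, 2 rose and 8 fell. All differences below are 3 months minus 16 days on the log2(signal + 1) scale, all adjusted p-values are limma's, and the values given for each group are signals. Counts of passing genes in every list below stand beside the 3.3% of all genes tested that passed.

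The number of genes called moved with single mice. Leaving out 1 ieCre mouse at a time gave 143 higher genes (without 9485) to 375 (without mouse 10), and 124 lower genes (without 9491) to 240 (without mouse 8088). Without mice 9955 and 9491, 100 genes were higher and 82 lower, of which 99 and 71 were among the 281 and 199. With the 94xx mice as the only 3-month libraries, 643 genes were higher and 482 lower, against 29 and 16 with mice 8088 and 8089 alone. With the 87xx to 99xx mice as the only 16-day libraries, 541 were higher and 347 lower, against 19 and 38 with mice 8 and 10 alone. A group of 2 libraries borrows its spread from the other groups and gives little power. Of 96 passing genes followed individually, 69 kept the call whichever mouse was left out, and 13 kept it in every alternative that gave them a result. Among these 13, Slc5a7 and Cd163l1 had a result in 29 alternatives, against 30 for genes such as Lep. Of the 69, those that lost it without mice 9955 and 9491 together included Lamb1, Nid1, Col6a2, Bmp1, Lox, Adamts9, Vwf, Dgat2, Rarb, Peg3, Zim1, Ighm, Rpl13, Rplp2 and Rpl27a.

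**Figure D1:**
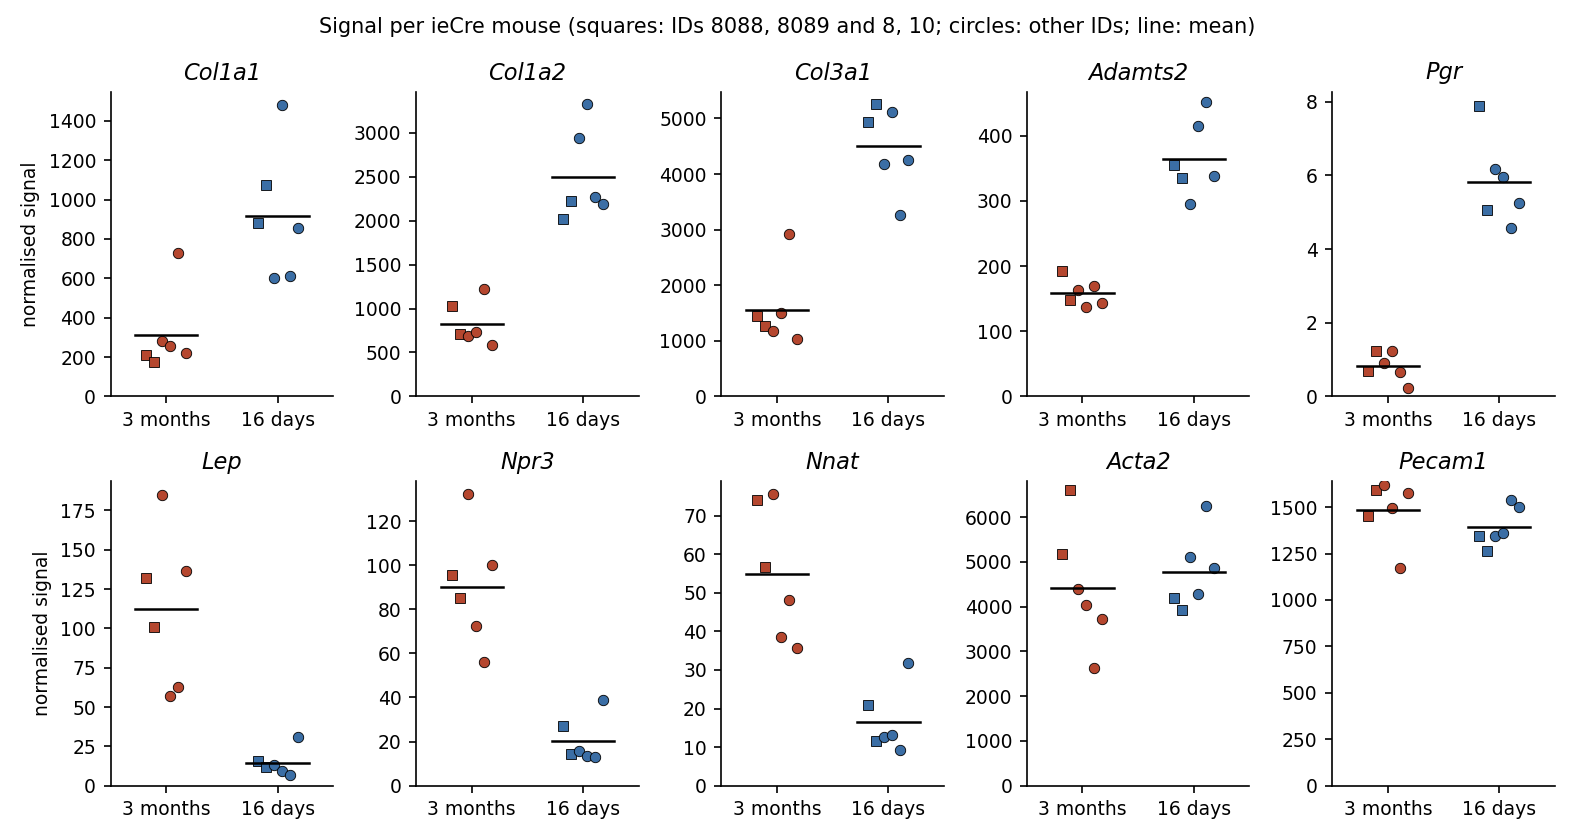
Normalized signal (y axis, linear) of 10 genes in each of the 6 ieCre mice at 3 months (left) and the 6 at 16 days (right); lines mark group means, and squares mark mice 8088 and 8089 at 3 months and mice 8 and 10 at 16 days. Col1a2, Col3a1, Adamts2 and Pgr lie lower, and Lep, Npr3 and Nnat higher, at 3 months with no overlap, Col1a1 overlaps through mouse 9487, and Acta2 and Pecam1 overlap throughout.

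Transcripts of the fibrillar collagens were lower at 3 months. Of 9 tested genes of this family, 5 fell (Col1a1, Col1a2, Col3a1, Col5a1 and Col5a2) and the other 4 did not pass, while 3.3% of all genes tested passed. The median log2 difference was -0.84, against 0.01 over all genes tested. Their summed signal was 2353 to 5844 at 3 months and 7140 to 11341 at 16 days, so the 2 groups did not overlap. Col1a2 (ENSMUSG00000029661, chromosome 6, 4504814 to 4541544 on GRCm38) encodes the second chain of type I collagen, the main collagen of the adventitia. Its signal was 584 to 1222 (median 723) at 3 months, against 2015 to 3326 (median 2248) at 16 days. Every mouse at 3 months lay below every mouse at 16 days. The mean was 827 ± 243 at 3 months and 2493 ± 516 at 16 days (SD, n = 6 each), log2 difference -1.61, SE 0.22, adjusted p = 0.000171. Col3a1 (ENSMUSG00000026043, chromosome 1, 45311538 to 45349706), which encodes the chain of type III collagen found beside type I in distensible vessels, had 1034 to 2918 (median 1350.4) at 3 months, against 3262 to 5264 (median 4599) at 16 days. Those groups did not overlap either (log2 difference -1.61, SE 0.25, adjusted p = 0.000493). Col1a1 (ENSMUSG00000001506, chromosome 11, 94936224 to 94953042), the first type I chain, had 175 to 730.2 (median 238) at 3 months, against 602 to 1482 (median 868) at 16 days (log2 difference -1.66, SE 0.30, adjusted p = 0.0027). The highest 3-month value belonged to mouse 9487, at 730, while the other 5 lay at 175 to 283, so only that mouse reached into the 16-day range.

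Within ID ranges, Col1a2 averaged 869 in mice 8088 and 8089 and 806 in the 94xx mice at 3 months, against 2119 in mice 8 and 10 and 2680.5 in the 87xx to 99xx mice at 16 days. Both 3-month ranges lay below both 16-day ranges. Col1a1 averaged 194 in mice 8088 and 8089 and 372 in the 94xx mice at 3 months, against 976 in mice 8 and 10 and 889 in the 87xx to 99xx mice at 16 days, with the same order. The calls of Col1a1 and Col1a2 held whichever mouse was left out and were lost only with mice 8 and 10 as the only 16-day libraries, while Col3a1 passed in every alternative. Type V chains, minor partners in type I fibrils, fell too. Col5a1, which starts fibril assembly, had 192 ± 44.3 at 3 months and 386 ± 87.4 at 16 days (log2 difference -1.0, adjusted p = 0.00319, no overlap). Col5a2 had 341 ± 104 at 3 months and 601 ± 109 at 16 days (log2 difference -0.84, adjusted p = 0.0258, groups overlapping), and its call was lost without mouse 9485 or mouse 9491. The number of the 9 that fell was 3 to 6 under the alternatives run, except for 1 with mice 8 and 10 alone.

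Col1a2 and Col3a1 fell together, and Lep, described further on, had the largest positive log2 difference of the passing genes named. The 250 bases before each annotated start are therefore printed here from RefSeq on GRCm38.p6, 5′ to 3′ on the plus strand. For Col1a2 the RefSeq start lies inside the GENCODE gene interval given above. The stretches lie at chr6:4505368-4505617 (Col1a2), chr1:45311288-45311537 (Col3a1) and chr6:29059971-29060220 (Lep). Capitals mark matches to motifs searched on both strands. The CCAAT box is the motif of NF-Y. The core promoter motif TATAAA binds TBP. The motif GGGCGG is the GC box of Sp1. The E-box motif was CACGTG. The motif TTGCGCAA is a palindrome bound by C/EBP factors.
Col1a2: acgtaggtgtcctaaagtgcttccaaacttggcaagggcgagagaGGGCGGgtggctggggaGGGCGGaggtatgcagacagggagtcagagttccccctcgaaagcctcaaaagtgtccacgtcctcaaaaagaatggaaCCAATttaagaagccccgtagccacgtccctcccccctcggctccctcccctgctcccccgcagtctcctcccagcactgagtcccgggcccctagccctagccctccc
Col3a1: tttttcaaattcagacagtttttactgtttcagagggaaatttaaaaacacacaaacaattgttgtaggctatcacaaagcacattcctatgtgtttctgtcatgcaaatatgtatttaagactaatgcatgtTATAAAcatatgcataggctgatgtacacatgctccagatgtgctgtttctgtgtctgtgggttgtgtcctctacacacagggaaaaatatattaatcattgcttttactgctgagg
Lep: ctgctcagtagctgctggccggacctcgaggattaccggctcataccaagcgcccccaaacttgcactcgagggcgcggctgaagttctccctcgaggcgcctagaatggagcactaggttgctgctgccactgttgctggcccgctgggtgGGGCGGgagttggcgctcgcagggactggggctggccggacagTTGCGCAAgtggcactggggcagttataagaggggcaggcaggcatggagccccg
The Col1a2 stretch holds a CCAAT at 109 to 105 bases before the start and GGGCGG at 205 to 200 and 188 to 183. The Col3a1 stretch holds a TATAAA at 117 to 112 bases before the start, and shares none of these motifs with Col1a2. The Lep stretch holds a GGGCGG at 98 to 93 and a TTGCGCAA at 55 to 48. Among 27025 promoter stretches of the same length, 34.5% hold CCAAT, 13% TATAAA, 32.9% GGGCGG, 6.05% CACGTG and 0.17% TTGCGCAA. Among the 10907 of them that belong to genes tested, 36% hold CCAAT, 6.48% TATAAA, 58.2% GGGCGG, 8.21% CACGTG and 0.257% TTGCGCAA. These matches are letters in a window and were not tested for binding.

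Basement membrane genes, whose products form the thin sheet beneath endothelium and around smooth muscle, were mostly lower at 3 months. Of 20 tested, 19 had a negative log2 difference (median -0.60 over the 20) and 6 passed, against 3.3% of all genes tested. The 6 were Col4a3, Col4a5, Lama2, Lamb1, Nid1 and Col15a1. Col15a1, a collagen at the outer face of basement membranes, had 137 to 197 (median 149) at 3 months, against 228 to 522 (median 378) at 16 days. The groups did not overlap (log2 difference -1.18, SE 0.23, adjusted p = 0.00491). Col4a3, a minor type IV chain, had 38.8 ± 7.47 at 3 months and 80.2 ± 19.5 at 16 days (log2 difference -1.02, adjusted p = 0.000627). Lama2, the laminin chain of muscle basement membranes, had 309 ± 22.7 at 3 months and 492 ± 57.1 at 16 days (log2 difference -0.66, adjusted p = 0.000426), and Lamb1, a laminin beta chain, had 105 ± 12 at 3 months and 167 ± 39 at 16 days (log2 difference -0.64, adjusted p = 0.00707). Nid1, which links laminin to type IV collagen, had 299 ± 53.1 at 3 months and 483 ± 77.9 at 16 days (log2 difference -0.69, adjusted p = 0.0128). With mice 8088 and 8089 as the only 3-month libraries, or mice 8 and 10 as the only 16-day libraries, 0 of the 20 passed in limma, and 13 passed with the 94xx mice or the 87xx to 99xx mice as the only ones of their group.

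Type VI collagen forms beaded microfibrils around cells, and 3 of its chains fell. Col6a3 had 299 to 403 (median 357) at 3 months, against 547 to 948 (median 698) at 16 days (log2 difference -0.99, SE 0.16, adjusted p = 0.00071). Its groups did not overlap. Col6a1 had 392 ± 102 at 3 months and 769.9 ± 146 at 16 days (log2 difference -0.99, adjusted p = 0.00304) and Col6a2 had 192 ± 41.7 at 3 months and 421 ± 134 at 16 days (log2 difference -1.09, adjusted p = 0.0139). These 3 were the passing genes among 17 beaded, fibril-associated and other collagens tested, whose median was -0.34. Col14a1, a fibril-associated collagen, had 979 ± 55.2 at 3 months and 1288 ± 159 at 16 days and did not pass (adjusted p = 0.055).

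Of 31 genes tested for the processing and crosslinking of collagen, 5 fell. Adamts2 (ENSMUSG00000036545, chromosome 11, 50602084 to 50807573), which removes the amino-terminal propeptide of types I, II and III procollagen, had 137 to 193 (median 155) at 3 months, against 295 to 451 (median 347) at 16 days. No mouse at 3 months reached the lowest mouse at 16 days (log2 difference -1.19, SE 0.14, adjusted p = 3.14e-05). The mean was 2.3 times as high at 16 days as at 3 months. Sparc, a collagen-binding protein of the matrix, had 757 ± 90.0 at 3 months and 1683 ± 372 at 16 days (log2 difference -1.13, adjusted p = 0.000171). Both passed in every alternative run. Bmp1, which removes the carboxy-terminal propeptide, had 103 ± 11.9 at 3 months and 159.7 ± 26.9 at 16 days (log2 difference -0.62, adjusted p = 0.00678). Of the crosslinking enzymes, Lox had 149 ± 24.6 at 3 months and 229 ± 37.8 at 16 days (log2 difference -0.62, adjusted p = 0.0115) and Loxl2 had 10.9 ± 2.87 at 3 months and 21 ± 3.49 at 16 days (log2 difference -0.91, adjusted p = 0.00358). Over the 31 genes 28 had a negative difference (median -0.24), and the other 26 did not pass.

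Among 17 elastic fibre genes, 16 had a negative difference (median -0.33) and 4 passed, against 3.3% of all genes tested. Fbn1, the fibrillin that scaffolds elastic fibres, had 523 to 731 (median 599.7) at 3 months, against 1033 to 1460.4 (median 1353) at 16 days (log2 difference -1.09, SE 0.14, adjusted p = 0.000101). Fbln5, which tethers elastin to that scaffold, had 172 to 250.4 (median 226) at 3 months, against 336 to 639.6 (median 446) at 16 days (log2 difference -1.04, SE 0.15, adjusted p = 0.000426). For both, the 3-month mice lay entirely below the 16-day mice. The 2 microfibril-associated genes were less steady: the call of Mfap2 (-0.67, adjusted p = 0.0362) was lost in 7 of the 12 fits that each left out 1 mouse (log2 difference -0.75 to -0.56), and that of Mfap4 (-0.51, adjusted p = 0.0395) was lost in 9 of the 12 fits that each left out 1 mouse (log2 difference -0.61 to -0.44). Of 11 small leucine-rich proteoglycans, which space collagen fibrils, Podnl1 passed, in the opposite direction, with 2.37 ± 0.358 at 3 months and 1.14 ± 0.385 at 16 days (log2 difference 0.67, adjusted p = 0.00551). Biglycan (Bgn) had 537 ± 72.2 at 3 months and 719.6 ± 150.1 at 16 days and did not pass (log2 difference -0.41, adjusted p = 0.17).

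Matrix proteases moved in both directions. Of 20 metalloproteinases, ADAMTS proteases and inhibitors tested, 3 fell and 1 rose (median -0.28), while 3.3% of all genes tested passed. Mmp2, the gelatinase of fibroblasts and smooth muscle, had 118 to 202 (median 163) at 3 months, against 253 to 410.2 (median 293) at 16 days. The groups were separate (log2 difference -1.0, SE 0.15, adjusted p = 0.000391). The membrane-anchored Mmp16 had 9.49 ± 1.48 at 3 months and 15 ± 1.94 at 16 days (log2 difference -0.61, adjusted p = 0.00055), and Adamts9, which cleaves proteoglycans, had 22.3 ± 2.91 at 3 months and 35.5 ± 6.3 at 16 days (log2 difference -0.64, adjusted p = 0.0159). Mmp3, the stromelysin that cleaves many matrix proteins, had 119 to 281 (median 154) at 3 months, against 62.8 to 110.4 (median 78.5) at 16 days and rose without overlap (log2 difference 1.04, SE 0.22, adjusted p = 0.00763).

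The TGF-beta pathway drives matrix gene expression in fibroblasts and smooth muscle. In it, 4 of 20 tested genes fell (median -0.24), while 3.3% of all genes tested passed. The ligand Tgfb2 had 29.5 ± 4.14 at 3 months and 43.7 ± 6.73 at 16 days (log2 difference -0.55, adjusted p = 0.0145), and the receptor Tgfbr2 had 282 ± 32 at 3 months and 410.5 ± 29.4 at 16 days (log2 difference -0.55, adjusted p = 0.00288). Both were without overlap. Among the target genes, Thbs1, which also activates the latent ligand, had 204 ± 62.2 at 3 months and 382 ± 54.7 at 16 days (log2 difference -0.95, adjusted p = 0.0236), and that call was lost in 5 of the 12 fits that each left out 1 mouse (log2 difference -1.06 to -0.84). Wnt5a, a secreted ligand of noncanonical Wnt signalling, had 59.2 to 83.4 (median 76.6) at 3 months, against 122 to 181 (median 131) at 16 days and passed in every alternative (log2 difference -0.97, SE 0.12, adjusted p = 4.11e-05), without overlap. Wnt11 had 4.86 ± 1.35 at 3 months and 2.86 ± 1.26 at 16 days (log2 difference 0.64, adjusted p = 0.0471), a call lost in 10 of the 12 fits that each left out 1 mouse (log2 difference 0.52 to 0.78). They were the 2 passing genes of 26 Wnt pathway genes, a count near the 3.3% of all genes tested that passed.

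**Figure D2:**
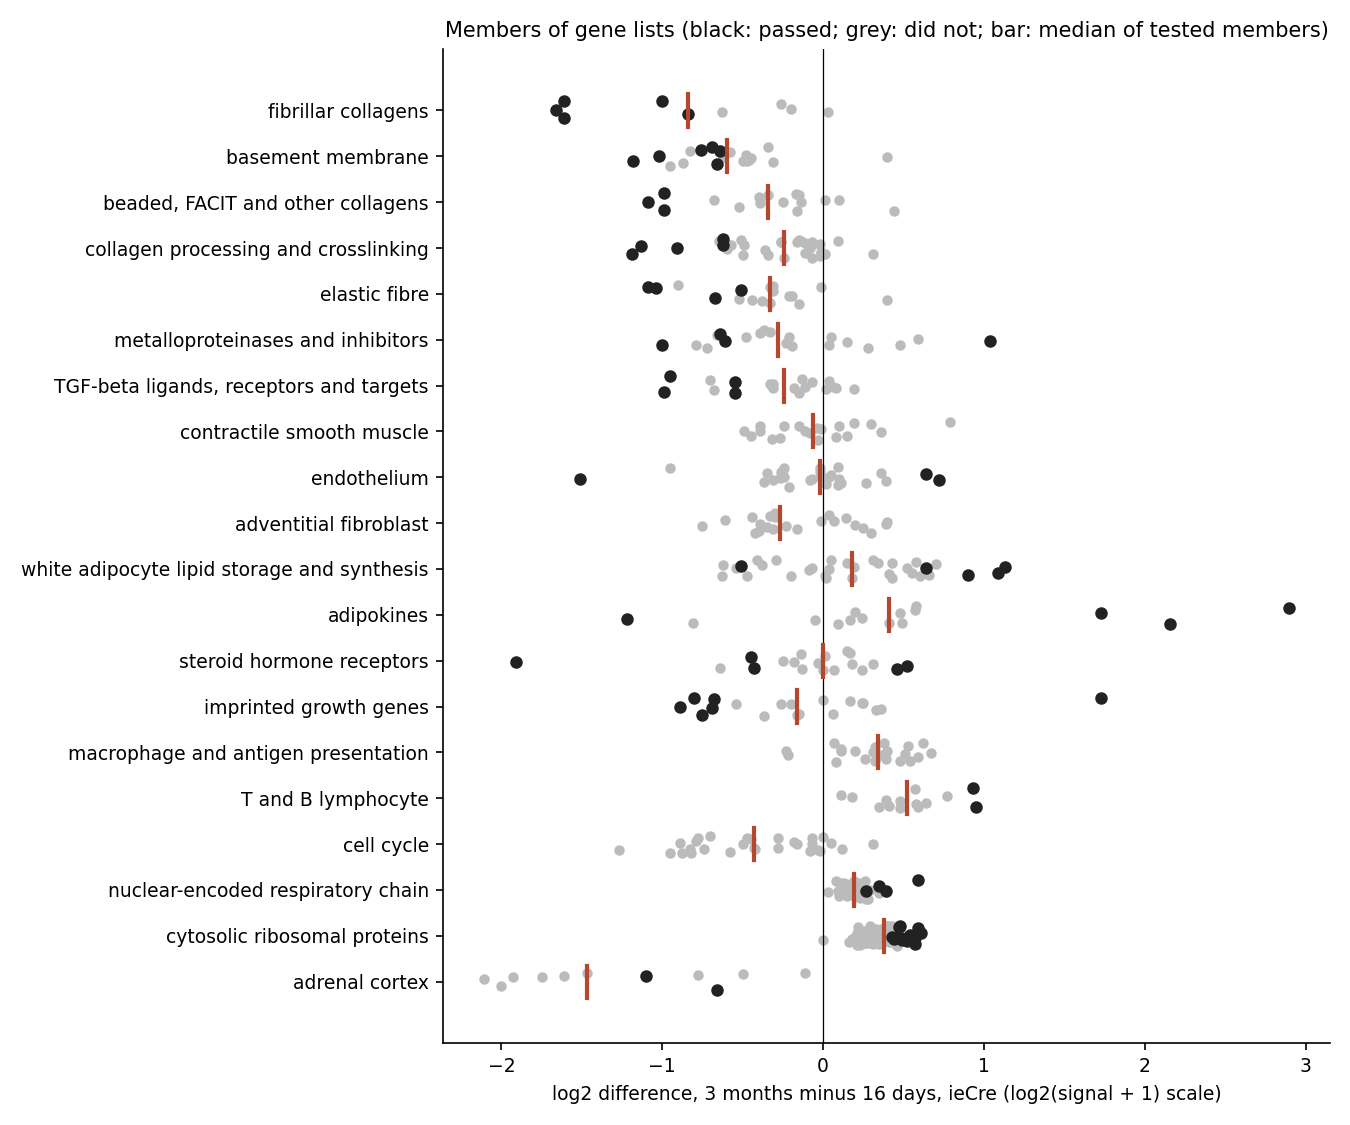
Log2 difference of every tested gene (3 months minus 16 days, log2(signal + 1); x axis) in 20 gene lists (rows); black points passed an adjusted p of 0.05, grey points did not, and bars mark list medians. Collagen and basement membrane genes lie mostly below 0, ribosomal protein genes lie at or above 0, and contractile smooth muscle genes centre near 0.

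The contractile genes of smooth muscle gave no call. Of 20 tested, 0 passed in limma, 3 had an unadjusted p under 0.05, edgeR called 0 and DESeq2 called 1 higher, and the median log2 difference was -0.06. Acta2, smooth muscle actin, had 2635 to 6600.2 (median 4206) at 3 months, against 3916 to 6247 (median 4579.5) at 16 days. The 2 groups overlapped (log2 difference -0.15, adjusted p = 0.743, 95% interval -0.56 to 0.27). Myh11, smooth muscle myosin, had 4246 ± 1937 at 3 months and 4088 ± 1236 at 16 days (log2 difference -0.01, adjusted p = 0.988, 95% interval -0.55 to 0.52), a difference whose sign turned under several alternatives. The interval for Acta2 leaves room for changes of a size that passed in other genes. Rgs5, a regulator of G protein signalling typical of pericytes and arterial smooth muscle, had 1022 to 1771 (median 1136) at 3 months, against 164 to 978 (median 541) at 16 days and rose without overlap (log2 difference 1.41, SE 0.32, adjusted p = 0.0145). That call was lost with the pancreatic and adrenal scores as terms.

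Endothelial identity genes centred near 0. Of 28 tested, 2 rose and 1 fell (median -0.02), while 3.3% of all genes tested passed. Pecam1, an adhesion molecule at endothelial junctions, had 1171 to 1617 (median 1535) at 3 months, against 1261 to 1539 (median 1352) at 16 days (log2 difference 0.09, adjusted p = 0.818, 95% interval -0.25 to 0.42). Cdh5, the cadherin of those junctions, had 90.2 ± 24 at 3 months and 115 ± 28.4 at 16 days (log2 difference -0.35, adjusted p = 0.286), and Tek, the angiopoietin receptor whose promoter drives the Cre, had 269 ± 18 at 3 months and 265 ± 11.7 at 16 days (log2 difference 0.02, adjusted p = 0.961). Vwf, the clotting glycoprotein stored in endothelium, had 136 to 399 (median 232) at 3 months, against 348 to 1224 (median 693) at 16 days. The groups overlapped and the gene passed (log2 difference -1.51, SE 0.35, adjusted p = 0.0159). By ID range, Vwf averaged 375 in mice 8088 and 8089 and 186 in the 94xx mice at 3 months, against 378 in mice 8 and 10 and 891 in the 87xx to 99xx mice at 16 days, so the mean of mice 8088 and 8089 was close to that of mice 8 and 10. The 2 that rose, the fatty acid transporter Cd36 (631 ± 146 at 3 months and 381 ± 72.4 at 16 days, log2 difference 0.72, adjusted p = 0.0305) and the fatty acid binding protein Fabp4 (552 ± 135 at 3 months and 349 ± 48.3 at 16 days, log2 difference 0.64, adjusted p = 0.0398), are made by adipocytes as well as by capillary endothelium. The Cd36 call was lost in 7 of the 12 fits that each left out 1 mouse (log2 difference 0.62 to 0.82), and the Fabp4 call lost in 8 of the 12 fits that each left out 1 mouse (log2 difference 0.53 to 0.72).

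Leptin showed the largest rise on the log2(signal + 1) scale among the passing genes named, a scale that understates changes of low genes. Lep (ENSMUSG00000059201, chromosome 6, 29060220 to 29073877), the hormone with which white fat signals energy stores, had 56.8 to 185 (median 116) at 3 months, against 6.62 to 31 (median 12.4) at 16 days. The lowest 3-month mouse lay above the highest 16-day mouse. The mean was 112 ± 48.7 at 3 months and 14.5 ± 8.65 at 16 days (SD, n = 6 each), 7.73-fold higher at 3 months (log2 difference 2.90, SE 0.37, adjusted p = 6.1e-05), and Lep passed in every alternative. Npr3 (ENSMUSG00000022206, chromosome 15, 11839896 to 11907287), the clearance receptor that removes natriuretic peptides and is abundant in fat, had 56.2 to 132 (median 90.4) at 3 months, against 13 to 39 (median 15) at 16 days. It was also without overlap (log2 difference 2.16, SE 0.25, adjusted p = 3.14e-05) and passed in every alternative. Nnat, an imprinted proteolipid expressed in adipocytes among other cells, had 35.7 to 75.6 (median 52.4) at 3 months, against 9.27 to 31.7 (median 12.8) at 16 days (log2 difference 1.73, SE 0.32, adjusted p = 0.00288), and its groups did not overlap. Agt, the angiotensin precursor, which fat also secretes, moved the other way, with 5.32 ± 0.913 at 3 months and 14.1 ± 4.18 at 16 days (log2 difference -1.22, adjusted p = 0.000778). These were the 3 higher and 1 lower gene among 15 adipokines and other fat-secreted or fat-enriched genes tested (median 0.41). That list, which includes Npr3 and Nnat, was written with earlier results of these data known, so its count only describes these genes.

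Genes of triglyceride storage and synthesis gave calls in both directions. Of 33 white adipocyte lipid genes, 4 rose and 1 fell (median 0.18), while 3.3% of all genes tested passed. In limma 15 of the 33 had an unadjusted p under 0.05, against 2610 of all 14544. Dgat2, which completes triglyceride synthesis, had 209.6 to 356 (median 289) at 3 months, against 100.4 to 152 (median 129) at 16 days (log2 difference 1.13, SE 0.24, adjusted p = 0.00876). Cidec, which enlarges lipid droplets, had 148 to 269 (median 197) at 3 months, against 76.4 to 126 (median 93.7) at 16 days (log2 difference 1.09, SE 0.23, adjusted p = 0.00763). For both, the groups were separate. Mogat2, an acyltransferase, had 2.77 ± 1.6 at 3 months and 0.936 ± 0.528 at 16 days (log2 difference 0.90, adjusted p = 0.0499), a call lost in 9 of the 12 fits that each left out 1 mouse (log2 difference 0.76 to 1.03). Gpam, which catalyses the first step of glycerolipid synthesis, had 46.7 ± 3.54 at 3 months and 67.7 ± 11.7 at 16 days (log2 difference -0.51, adjusted p = 0.0417), a call lost in 9 of the 12 fits that each left out 1 mouse (log2 difference -0.59 to -0.46). Tmem182, a membrane protein reported in fat and muscle, had 5.46 ± 1.86 at 3 months and 1.58 ± 0.541 at 16 days (log2 difference 1.31, adjusted p = 0.000404), and G0s2, an inhibitor of the fat lipase, had 61 ± 14.7 at 3 months and 25.8 ± 6.2 at 16 days (log2 difference 1.21, adjusted p = 0.000171). Dio2, the deiodinase that makes active thyroid hormone in brown fat, had 35.1 ± 9.21 at 3 months and 84.8 ± 34.9 at 16 days and fell (log2 difference -1.17, adjusted p = 0.00914). It was the passing gene among 8 brown adipocyte genes, of which 4 had a positive and 4 a negative difference (median -0.09).

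The level of fat marker transcripts was measured in each mouse as well. A score over 5 adipocyte genes (Adipoq, Plin1, Plin4, Cidec and Lipe; mean log2(signal + 1)) was 7.59 ± 0.288 at 3 months and 6.99 ± 0.213 at 16 days (SD, n = 6 each). It ran from 7.25 to 7.99 at 3 months and from 6.66 to 7.26 at 16 days, so the groups overlapped at their edges. The score was not tested, and of its 5 genes Cidec passed while Adipoq (adjusted p = 0.133), Plin1 (0.0537), Lipe (0.444) and Plin4 (0.754) did not in limma. The summed signal of all 33 lipid genes was 5819 to 7993 at 3 months and 5355 to 8150 at 16 days. With the adipocyte score as a term in the model, 820 genes were higher and 629 lower, and 207 and 161 of the original calls remained. Lep and Npr3 passed in that fit too. Cd36, Fabp4, Col5a2, Rarb, Mme, Rian and Spon2 were among those that did not.

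**Figure D3:**
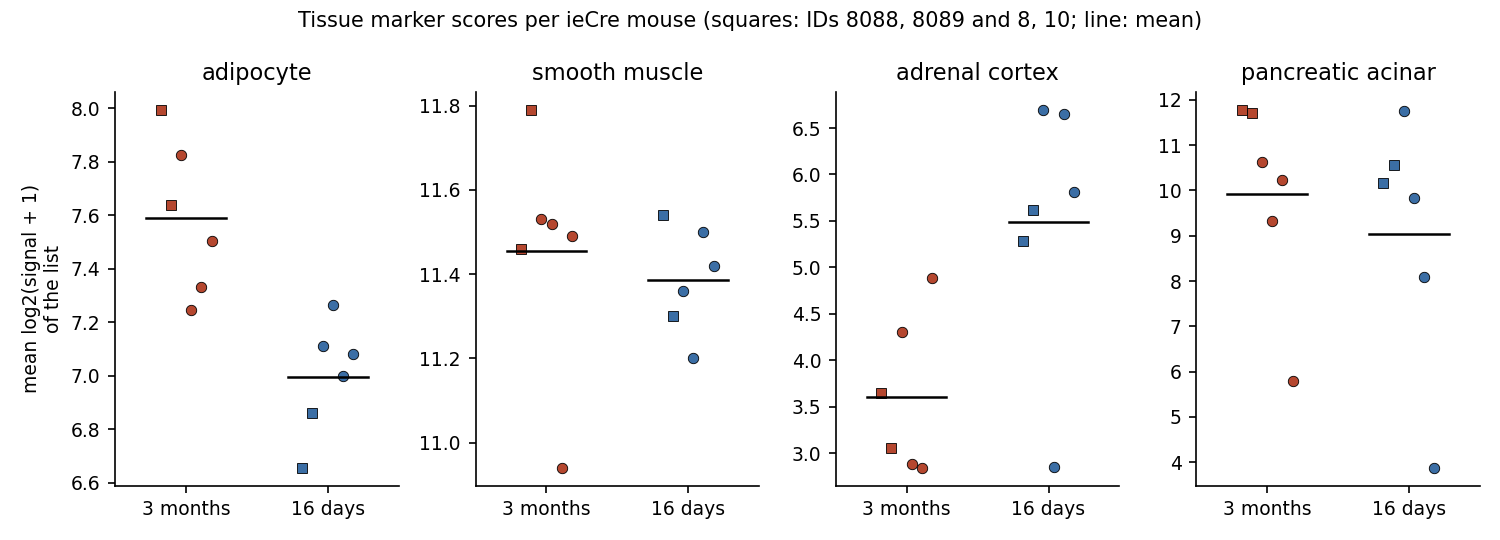
Tissue scores (mean log2(signal + 1) over 5 genes each; y axis) of the ieCre mice at 3 months (left in each panel) and 16 days (right); lines mark means, and squares mark mice 8088 and 8089 at 3 months and 8 and 10 at 16 days. The adipocyte score was 7.59 ± 0.288 at 3 months and 6.99 ± 0.213 at 16 days, the adrenal score 3.6 ± 0.843 at 3 months and 5.49 ± 1.41 at 16 days (SD, n = 6 each), and the groups overlapped in all 4 scores.

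Receptors for steroid hormones included the gene with the largest negative log2 difference among the passing genes named. Pgr (ENSMUSG00000031870, chromosome 9, 8899833 to 8968611), the progesterone receptor, had 0.235 to 1.24 (median 0.802) at 3 months, against 4.57 to 7.88 (median 5.6) at 16 days. There was no overlap, and the call held in every alternative (log2 difference -1.91, SE 0.23, adjusted p = 4.11e-05). The lowest 3-month value is near the signal of 3 reads, 0.177 to 0.446 in ieCre libraries, so the size of the fall is uncertain. Esr1, the oestrogen receptor that induces Pgr in many tissues, had 22.8 ± 2.84 at 3 months and 31.7 ± 5.34 at 16 days (log2 difference -0.45, adjusted p = 0.0424). The Esr1 call was lost in 10 of the 12 fits that each left out 1 mouse (log2 difference -0.50 to -0.37). Rarb, a retinoic acid receptor and a target of retinoic acid, had 11.9 ± 1.82 at 3 months and 8.02 ± 0.983 at 16 days and rose (log2 difference 0.52, adjusted p = 0.0167). Nr1h3, the liver X receptor of macrophages and fat, had 34.9 ± 7.27 at 3 months and 24.7 ± 2.42 at 16 days (log2 difference 0.46, adjusted p = 0.049), a call lost in 10 of the 12 fits that each left out 1 mouse (log2 difference 0.38 to 0.56). In all, 3 genes fell and 2 rose of 19 nuclear receptors tested, while 3.3% of all genes tested passed.

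In the renin-angiotensin and endothelin list, 2 of 15 genes fell and 1 rose, while 3.3% of all genes tested passed. Beside Agt, the renin gene Ren1 had 0.366 to 4.26 (median 0.619) at 3 months, against 2.42 to 5.13 (median 3.57) at 16 days. Mouse 9485 at 3 months, with 4.26, lay inside the 16-day range, and the other 5 had 0.366 to 0.813 (log2 difference -1.24, SE 0.32, adjusted p = 0.0305). The call was lost in 6 of the 12 fits that each left out 1 mouse (log2 difference -1.53 to -1.14). Mme, neprilysin, which degrades natriuretic peptides and endothelin, had 22.5 ± 4.47 at 3 months and 12.4 ± 1.44 at 16 days and rose without overlap (log2 difference 0.80, adjusted p = 0.00981).

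Imprinted growth genes, expressed from the copy of 1 parent and known for high levels before and shortly after birth, gave 5 lower and 1 higher gene of 19 tested (median -0.16). The noncoding RNAs Mirg, Rian and Meg3 from the Dlk1-Dio3 domain on chromosome 12 fell together. Mirg had 7.32 to 10.8 (median 9.21) at 3 months, against 11.9 to 19.1 (median 17) at 16 days (log2 difference -0.75, SE 0.12, adjusted p = 0.000703). Its groups did not overlap. Rian had 102 ± 22.9 at 3 months and 165 ± 36.7 at 16 days (log2 difference -0.69, adjusted p = 0.0168), and Meg3 had 45.5 ± 5.98 at 3 months and 74.7 ± 18.3 at 16 days (log2 difference -0.68, adjusted p = 0.0222), whose call was lost without mouse 9955, 9486 or 9491. From the Peg3 domain on chromosome 7, the zinc finger genes Peg3 (90.2 ± 30.9 at 3 months and 152 ± 14.8 at 16 days, log2 difference -0.80, adjusted p = 0.00945) and Zim1 (4.23 ± 0.782 at 3 months and 8.97 ± 2.78 at 16 days, log2 difference -0.89, adjusted p = 0.0107) fell. Nnat, given above, was the gene that rose, and 3.3% of all genes tested passed.

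The counts in the immune lists stand beside 3.3% of all genes tested that passed. Of 22 lymphocyte genes listed, 14 passed the filter on low values and were tested. All 14 had a positive difference (median 0.53), a count that leaves out the genes below the filter. Among them 2 passed, 1 being Cd79b, a B cell receptor subunit (3.32 ± 1.81 at 3 months and 1.11 ± 0.343 at 16 days, log2 difference 0.93, adjusted p = 0.0474). The Cd79b call was lost in 9 of the 12 fits that each left out 1 mouse (log2 difference 0.76 to 1.16). Ighm, the heavy chain of IgM, had 65.9 ± 14.5 at 3 months and 32.6 ± 16.2 at 16 days and rose (log2 difference 1.09, adjusted p = 0.0113), the passing gene of 11 plasma cell genes. The scavenger receptor family gene Cd163l1 had 2.93 ± 1.03 at 3 months and 0.748 ± 0.537 at 16 days (log2 difference 1.18, adjusted p = 0.000492). It passed in each of the 29 alternatives that gave it a result. Of 22 macrophage and antigen presentation genes 0 passed in limma, edgeR or DESeq2, 3 had an unadjusted p under 0.05 and 20 had a positive difference (median 0.34). Of 20 interferon-stimulated genes 2 fell, the viral RNA sensor Ifih1 (42.2 ± 4.22 at 3 months and 56.1 ± 7.73 at 16 days, log2 difference -0.40, adjusted p = 0.0289) and Oasl2 (12.3 ± 1.93 at 3 months and 18 ± 4.08 at 16 days, log2 difference -0.50, adjusted p = 0.0288), calls lost in 6 and 5 of the fits that left out 1 mouse.

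Cell cycle genes gave no call in limma. Of 29 tested, 0 passed, edgeR called 0 and DESeq2 called 1 lower, 11 had an unadjusted p under 0.05 and 26 had a negative difference (median -0.43). Cenpf, a centromere protein of dividing cells, had 1.34 to 9.75 (median 2.31) at 3 months, against 2.44 to 16.2 (median 11.7) at 16 days. The groups overlapped (log2 difference -1.27, adjusted p = 0.0665). Ccna2, cyclin A2, had 6.27 ± 5.76 at 3 months and 11.6 ± 6.45 at 16 days (log2 difference -0.89, adjusted p = 0.23).

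Short, abundant transcripts of the translation and respiratory machinery rose in part at 3 months. Of 78 cytosolic ribosomal protein genes, a list added after the data had been seen, 14 passed, all higher, against 3.3% of all genes tested. No member had a negative difference and the median was 0.38. Fau, a small ribosomal subunit fusion protein gene, had 176 to 257 (median 243) at 3 months, against 126 to 182 (median 145) at 16 days. The groups overlapped (log2 difference 0.57, SE 0.11, adjusted p = 0.00583). Rpl13, of the large subunit, had 368 ± 61.1 at 3 months and 247 ± 39.1 at 16 days (log2 difference 0.57, adjusted p = 0.0095). Of 34 nuclear-encoded respiratory chain genes all had a positive difference (median 0.20) and 4 rose, Cox8a, Cox4i1, Ndufs7 and Ndufv1. Cox8a, a subunit of cytochrome c oxidase, had 169.6 ± 27.8 at 3 months and 113 ± 20.9 at 16 days (log2 difference 0.59, adjusted p = 0.00556). The calls of Cox4i1 and Ndufv1 were lost in 8 and 10 of the 12 fits that left out 1 mouse, and that of Ndufs7 without mouse 9485. Of 7 mitochondrially encoded genes tested, 0 passed in limma, edgeR or DESeq2 and 0 had an unadjusted p under 0.05 (median 0.13). Reads of ribosomal protein genes can be shared with their many pseudogenes.

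Replication-dependent histone genes, whose mRNAs normally lack a poly(A) tail and are seen in total RNA libraries, gave 7 higher genes of 42 (median 0.27; list added after the data had been seen). Hist1h4h had 70.7 to 103 (median 93.9) at 3 months, against 47.3 to 66.3 (median 52.9) at 16 days. The groups did not overlap (log2 difference 0.66, SE 0.10, adjusted p = 0.000519). Hist1h4c had 83.6 ± 11.6 at 3 months and 53.3 ± 8.21 at 16 days (log2 difference 0.64, adjusted p = 0.00393) and Hist2h2ac had 20.8 ± 3.42 at 3 months and 13.5 ± 2.24 at 16 days (log2 difference 0.59, adjusted p = 0.00866). The share passing over all genes tested was 3.3%. Near-identical copies of these histone genes make the split of reads between them uncertain.

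The size of the difference varied with gene length. Genes were ranked by exonic length and cut into 10 equal groups. The median log2 difference was 0.15 in the shortest group (56 to 1577 nt) and -0.10 in the longest (9791 to 123179 nt). In the shortest group 71 genes rose and 12 fell, and in the longest 7 rose and 40 fell. The median exonic length was 2536 nt for the higher genes, 6412 nt for the lower and 4340 nt for all. After each library was corrected for length, 182 genes were higher and 211 lower, so 46.3% of calls were higher, against 58.5% without the correction. Of the original calls, 167 higher and 166 lower remained. For each library, the median deviation of the 2 longest groups from the mean of all libraries was subtracted from that of the 2 shortest (log2 scale). The result was 0.20 to 0.30 in the 94xx mice, -0.08 in mouse 8088 and -0.10 in mouse 8089 at 3 months, against 0.07 in mouse 8, 0.11 in mouse 10 and -0.38 to -0.01 in the 87xx to 99xx mice at 16 days. Mice 8088 and 8089 were therefore below mice 8 and 10, the reverse of the order of the other mice. In ieET-1 mice the median log2 difference was 0.03 in the shortest group and -0.07 in the longest. With the correction 10 ribosomal protein genes, 1 respiratory chain gene and 4 histone genes passed, against 14, 4 and 7 without it. With mice 8088 and 8089 as the only 3-month libraries, 0 ribosomal protein genes passed in limma and their median was 0.03, while with the 94xx mice 55 passed. Col1a1, Col1a2, Col3a1, Adamts2, Lep, Npr3 and Pgr passed after the correction too.

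**Figure D4:**
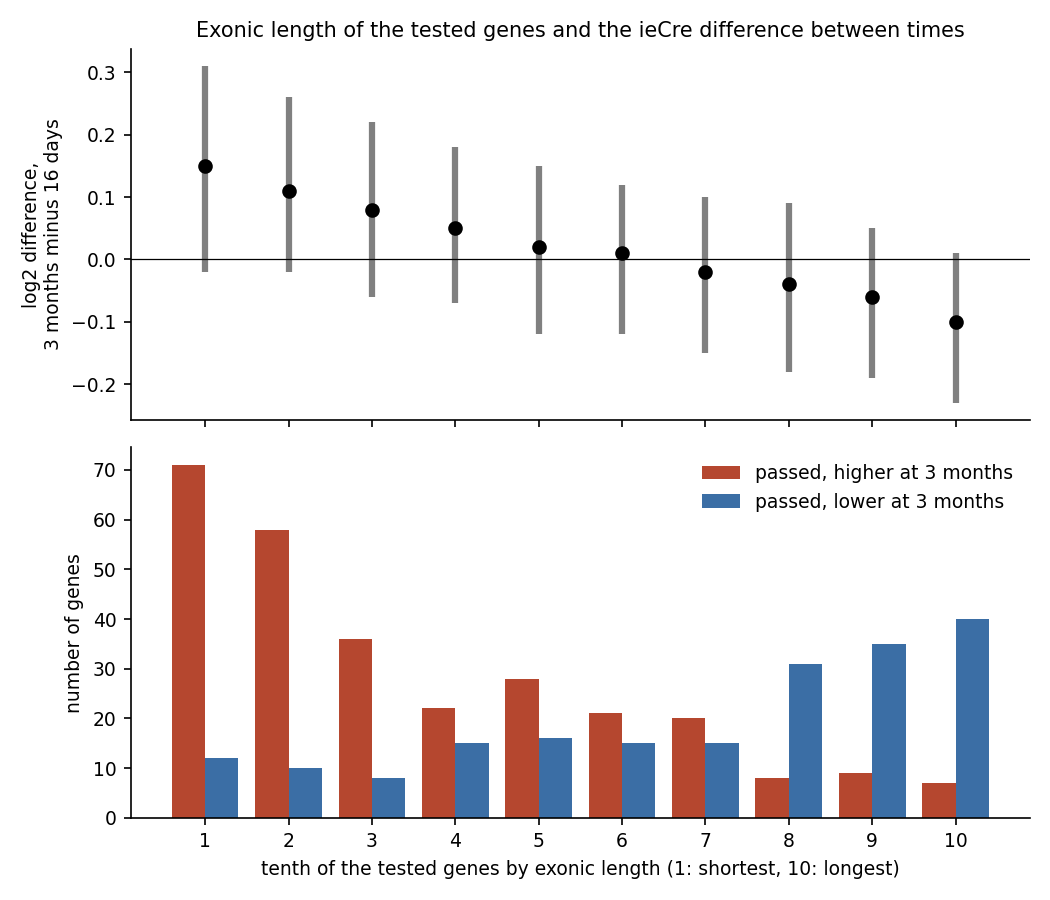
Top, median (points) and quartiles (bars) of the log2 difference (3 months minus 16 days) in 10 equal groups of genes from the shortest to the longest exonic length (x axis); bottom, number of genes called higher and lower in each. The median runs from 0.15 in the shortest group to -0.10 in the longest, and calls run from 71 higher and 12 lower to 7 higher and 40 lower.

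The genes with the largest changes included others outside these groups. Among lower genes, Nrk, a kinase on the X chromosome best known in placenta, had 2.0 to 3.84 (median 2.39) at 3 months, against 5.61 to 12.7 (median 9.12) at 16 days (log2 difference -1.45, SE 0.16, adjusted p = 2.4e-05), and Ampd3, which deaminates AMP, had 9.75 to 14.7 (median 13.1) at 3 months, against 27.4 to 44.9 (median 29.8) at 16 days (log2 difference -1.30, SE 0.14, adjusted p = 2.07e-05). Neither overlapped, and both passed in every alternative. Mmd2 had 3.88 ± 1.23 at 3 months and 11.3 ± 2.37 at 16 days (log2 difference -1.34, adjusted p = 0.00071) and Spon2, a secreted matrix protein, had 66.4 ± 38 at 3 months and 144 ± 42.9 at 16 days (log2 difference -1.23, adjusted p = 0.00973). Among higher genes, the GABA transporter Slc6a13 had 9.7 ± 1.86 at 3 months and 3.14 ± 0.783 at 16 days (log2 difference 1.37, adjusted p = 0.000426) and passed in every alternative. The choline transporter Slc5a7 had 3.1 ± 1.41 at 3 months and 0.601 ± 0.201 at 16 days (log2 difference 1.30, adjusted p = 0.000424). It passed in each of the 29 alternatives that gave it a result. Phgdh, the first enzyme of serine synthesis, had 31.7 to 53.2 (median 42.5) at 3 months, against 13.7 to 20.3 (median 18.9) at 16 days (log2 difference 1.2, SE 0.18, adjusted p = 0.000492), with no overlap. Dmrt2, a transcription factor gene, had 3.87 ± 1.64 at 3 months and 0.659 ± 0.312 at 16 days (log2 difference 1.49, adjusted p = 0.000873), and Sucnr1, the succinate receptor, had 7.46 ± 1.4 at 3 months and 2.69 ± 1.04 at 16 days (log2 difference 1.24, adjusted p = 0.00116). Nrtn, the growth factor neurturin, had 8.18 ± 2.32 at 3 months and 2.88 ± 1.05 at 16 days (log2 difference 1.24, adjusted p = 0.000454), and Tmem45b had 41.3 ± 11.1 at 3 months and 14.8 ± 1.8 at 16 days (log2 difference 1.38, adjusted p = 0.000624). Prr32 was listed at 0 in 4 of the 6 mice at 16 days and at 0.0814 and 0.135 in the other 2, and averaged 1.95 ± 1.23 at 3 months and 0.036 ± 0.0582 at 16 days. The 16-day means of Slc5a7, Dmrt2, Prr32 and Cd163l1 lay under the filter value of 1. Such genes can enter the test through libraries of groups where they are higher, which favours calls in that direction. With no filter on low values each of these genes still passed.

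The remaining lists gave 2 calls or fewer each, while 3.3% of all genes tested passed, so these counts describe single genes. Of 14 mesothelial genes Bnc2 fell (27.8 ± 2.14 at 3 months and 36.8 ± 5.05 at 16 days, log2 difference -0.39, adjusted p = 0.0206), a call lost without mouse 9955 or 9485. Of 23 cholesterol synthesis genes Insig1, the sterol-sensing brake on the pathway, rose (103 ± 18.6 at 3 months and 69.1 ± 6.6 at 16 days, log2 difference 0.55, adjusted p = 0.0254), a call lost in 6 of the 12 fits that each left out 1 mouse (log2 difference 0.48 to 0.62). Of 12 natriuretic peptide and nitric oxide genes, Npr3 passed. Among 22 adventitial fibroblast genes 0 passed in limma or edgeR, DESeq2 called 3 lower, 7 had an unadjusted p under 0.05 and the median was -0.27. Cd248, a receptor of perivascular fibroblasts, had 21.4 ± 4.74 at 3 months and 37.9 ± 12.9 at 16 days (log2 difference -0.75, adjusted p = 0.11). Limma called 0 genes in each of the lists of lymphatic endothelium, Schwann cells, chemokines, insulin and IGF signalling, circadian clock, immediate early response, heat shock, glycolysis, fatty acid oxidation, intestinal epithelium, skeletal muscle and erythroid cells. In each of these 12 lists 0 to 7 genes had an unadjusted p under 0.05, and edgeR and DESeq2 each called 0 to 2.

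Transcripts of neighbouring organs differed between the mice as well. All 11 adrenal cortex genes tested had a negative difference (median -1.47), 9 had an unadjusted p under 0.05 and 2 passed: Scarb1, the receptor that supplies cholesterol (23.1 ± 2.73 at 3 months and 37.9 ± 9.02 at 16 days, log2 difference -0.66, adjusted p = 0.0355), and Nr5a1, the transcription factor of steroid-making cells (0.394 ± 0.29 at 3 months and 2.54 ± 2.31 at 16 days, log2 difference -1.10, adjusted p = 0.047). The Scarb1 call was lost in 8 of the 12 fits that each left out 1 mouse (log2 difference -0.76 to -0.58), and the Nr5a1 call lost in 10 of the 12 fits that each left out 1 mouse (log2 difference -1.41 to -0.83). Prss35 (2.2 ± 0.808 at 3 months and 8.98 ± 5.36 at 16 days, log2 difference -1.48, adjusted p = 0.0222) and Mgarp (2.44 ± 1.09 at 3 months and 8.16 ± 4.43 at 16 days, log2 difference -1.25, adjusted p = 0.0386) fell with them in ieCre mice and had differences of 0.43 and 0.27 in ieET-1 mice. The Mgarp call was lost in 10 of the 12 fits that each left out 1 mouse (log2 difference -1.62 to -1.07), and was also lost with the 12 ieCre libraries alone. The Prss35 call was lost without mouse 8754 or 9957, and both calls were lost with the pancreatic and adrenal scores as terms. In ieET-1 mice the median of the 11 adrenal cortex genes was 1.04, the opposite direction, and 0 passed in limma. The adrenal score of the ieCre mice was 3.6 ± 0.843 at 3 months and 5.49 ± 1.41 at 16 days (SD, n = 6 each). Of 22 pancreatic genes 0 passed in limma, edgeR or DESeq2 and 0 had an unadjusted p under 0.05, and Cela2a, an elastase, had 53.9 to 3911 (median 1419) at 3 months, against 11.3 to 3252 (median 897) at 16 days. Chromaffin genes had a median of 1.0 over 8 genes, 0 passed in limma, 6 had an unadjusted p under 0.05, and edgeR and DESeq2 each called 3 higher. Chga, a granule protein of chromaffin cells, had 1.59 to 159 (median 6.51) at 3 months, against 0.31 to 3.91 (median 2.12) at 16 days, the highest value being that of mouse 8088. With the pancreatic and adrenal scores as terms, 98 genes were higher and 89 lower, and 94 and 84 of the original calls remained. Col1a1, Col1a2, Col3a1, Lep, Npr3 and Pgr passed in that fit too, while Nid1, Col6a2, Mmp3, Adamts9, Tgfb2, Podnl1, Vwf, Rian, Ighm, Rgs5 and Fau were among those that did not. Without mouse 8754, 9957, 9958 or any of the 4 94xx mice, 0 adrenal genes passed in limma, while without mouse 9955, which had the lowest adrenal score at 16 days (2.85), 5 did.

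The ieET-1 mice, which are separate animals, were compared in the same way. Their IDs fall in the same ranges at the same times, 80xx to 81xx and 94xx at 3 months and 1 to 3 digits and 87xx to 99xx at 16 days, so time and ID range cannot be told apart in them either, and calls shared between the genotypes carry that limit. There, 767 genes were higher and 493 lower at 3 months, 8.66% of genes tested (5.27% higher and 3.39% lower). Of the genes called in ieCre mice, 278 of the 281 higher and 192 of the 199 lower had the same sign in ieET-1 mice. In all 289 genes passed in both genotypes in the same direction (178 higher and 111 lower), which is 60.2% of the ieCre calls and 22.9% of the ieET-1 calls, and 0 passed in opposite directions. No gene's time effect differed between genotypes at an adjusted p of 0.05 in limma (0 of 14544, lowest adjusted p 0.752), 731 had an unadjusted p under 0.05, and DESeq2 called 6. Col1a1 averaged 235 ± 103 at 3 months and 720.1 ± 174 at 16 days in ieET-1 mice (log2 difference -1.69, adjusted p = 0.00123), and Col3a1 1244 ± 520.4 at 3 months and 3535 ± 817 at 16 days (-1.57, adjusted p = 0.000475). Lep averaged 119 ± 43.9 at 3 months and 17.5 ± 8.56 at 16 days (2.74, adjusted p = 9.24e-05), and Pgr 0.904 ± 0.786 at 3 months and 7.08 ± 2.99 at 16 days (-2.08, adjusted p = 2.81e-05). These 4 genes therefore passed in both genotypes in the same direction. Col6a1 had a difference of -0.99 in ieCre mice and -0.36 in ieET-1 mice (adjusted p = 0.212 in ieET-1), and the difference between the genotypes had an unadjusted p of 0.0241. Rgs5 had 1.41 in ieCre mice and 0.24 in ieET-1 mice (adjusted p = 0.679 in ieET-1), with an unadjusted p of 0.0151 for the difference between the genotypes, which did not pass after adjustment.

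**Figure D5:**
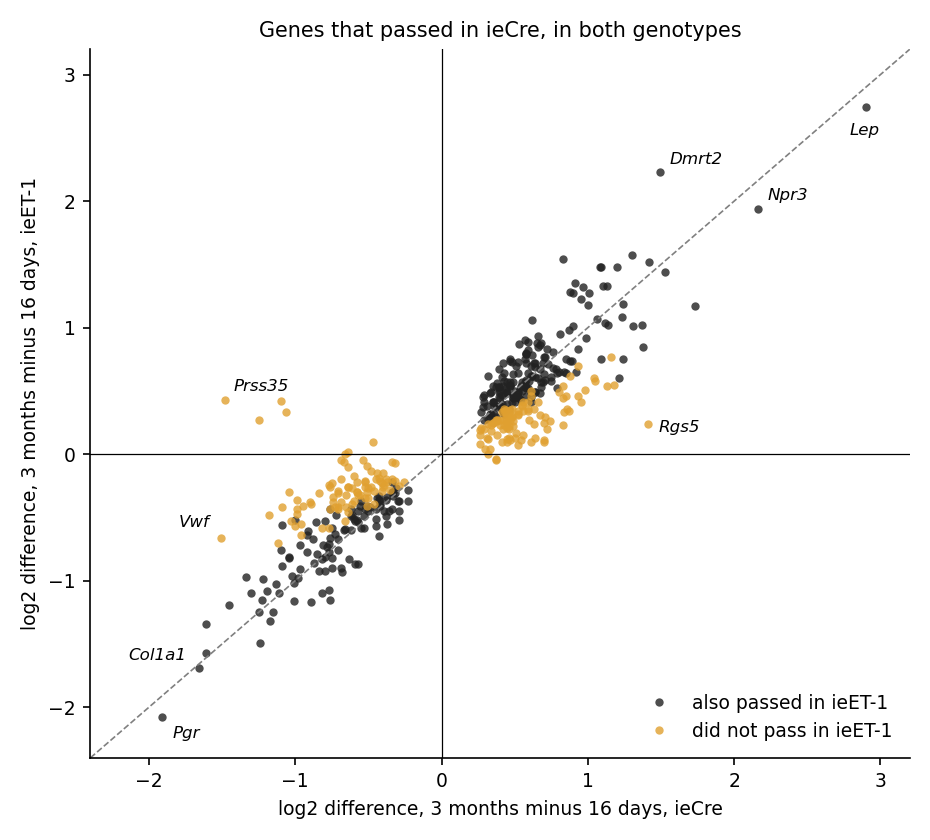
Log2 difference (3 months minus 16 days) of the 480 genes called in ieCre mice, in ieCre mice (x axis) and in the separate ieET-1 mice (y axis); black points also passed in ieET-1 mice. Of these, 289 passed in both with the same sign and 0 with opposite signs.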

How the data were processed

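The deposited table gives, per the file headers, 1 column for each of 24 mice. Its values are a signal that the authors normalized: when every column was divided by its own smallest value above 0, whole reads came out for 100% of 482060 positive values (tolerance 0.001). Per the submitters' processing notes, the tools included STAR 2.3.1, edgeR 3.6.8, R 3.2.3, FastQC and bcl2fastq 1.8.4, with no role stated. The genome build, annotation, read counter and whether counting used strand are steps not given in the sources used, so reads of overlapping, antisense and near-identical genes are uncertain. The row named ID (at most 0.0993% of reads) was dropped, leaving 29020 genes, of which 28403 (97.9%) took a symbol by gene ID. Locations, found for 28424 genes, and exonic lengths came from GENCODE mouse M21 on GRCm38. A value of 3 reads, the floor, is 0.177 to 0.446 in ieCre libraries, which covers counting error alone. Over 276 pairs of libraries none was a duplicate (lowest chi-square per degree of freedom 12.2).

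Genes at 1 or more in at least 6 libraries (14544) were tested with limma 3.58.1 in R 4.3.3 (trend) on log2(signal + 1), which understates changes of low genes, in a model of the 4 group means (20 residual degrees of freedom), two-sided, with Benjamini-Hochberg adjustment at 0.05. The table had been assumed to hold CPM, and the same log-scale test was kept. Whole reads were also tested with edgeR 4.0.16 and DESeq2 1.42.0 (22 adjusted p-values not available). The length correction subtracts from each library its median deviation within 20 bins of exonic length (14415 genes, 99.1%). It, the fit without mice 9955 and 9491, the ribosomal protein and histone lists and the TTGCGCAA motif were chosen after seeing the data, and the members, the other 43 lists and tests with earlier results of these data known. Genes named are the 15 largest log2 differences of passing genes each way, the 4 smallest p of each list and defining markers. Some were added later. Predicted genes, pseudogenes and immunoglobulin or T cell receptor segments were left out of the 15. Each library is 1 mouse, but p-values measure only the spread between these mice. A few genes counted in the lists are not reported here by name.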

Additional observations from a re-analysis of the deposited data

Results flagged for a closer look

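In 228 groups of 6 values examined, 22 held a highest or lowest mouse set apart from the other 5 by more than Dixon's 95% limit of 0.625 of the range, with gene values on the log2(signal + 1) scale. Chance alone gives about 1 in 20.

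Mouse 9487, at 3 months, accounted for 6 of them. It was the highest for Col1a1 (730, the others 175 to 283), Col3a1 (2920, the others 1034 to 1507) and Sparc (933, the others 697 to 768), all 3 genes that fell at 3 months, and so lay nearest to the 16-day mice. It was the lowest for Col4a3 (25.3), for Pecam1 (1170, the others 1454 to 1617) and for Tek (235). Without it, Col1a1 differed by -1.95 on the log2 scale, against -1.66 with it.

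The other mice at 3 months that stood apart were 9485 for Ren1 (4.26) and Tmem182 (9.1), 9486 for Bnc2 (31.9) and Wnt11 (7.55), 9491 for Mgarp (4.58) and for the share of reads on Gm42418 (11.5%), and 8088 for Hist1h4d (lowest, 108). At 16 days, mouse 9955 stood apart for Gm42418 (26.6% of reads), Mfap2 (10.3), Bnc2 (47.0), Mgarp (lowest, 1.19) and the adrenal score (lowest, 2.85). Mouse 8 did so for Podnl1 (lowest, 0.434) and Esr1 (42.2), mouse 9957 for Tgfbr2 (468) and mouse 8754 for Tgfb2 (56.9).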

How the results depend on the processing

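Counts are genes higher and lower at 3 months in ieCre mice, 281 and 199 as reported. Leaving out 1 mouse at a time gave 143 to 375 higher and 124 to 240 lower, 189 to 309 genes passing in both genotypes (289 as reported) and 0 whose time effect differed between genotypes. The higher and lower counts were 1238 and 982 with library weights, 643 and 482 with the 94xx mice alone, 541 and 347 with the 87xx to 99xx mice alone, and 820 and 629 with the adipocyte score as a term. They were 146 and 120 without 4 Gm42418-rich libraries, 100 and 82 without mice 9955 and 9491, 98 and 89 with the pancreatic and adrenal scores as terms, 29 and 16 with mice 8088 and 8089 alone, and 19 and 38 with mice 8 and 10 alone. No filter gave 178 higher, the length correction 182 higher, and DESeq2 373 lower. Some of these settings test more genes or fewer mice, and otherwise the cause was not tested. With mice 8 and 10 alone 33.3% of the calls were higher, and with the length correction 46.3%, against 58.5% as reported. Genes passing in both genotypes numbered 191 with no filter, 447 with DESeq2, 572 with library weights, 157 without the 4 libraries and 135 without mice 9955 and 9491. Time effects differing between genotypes numbered 6, 1 and 2 with DESeq2, without the 4 libraries and without those 2 mice.

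Among genes named, 7 changed sign, none of which had passed. Myh11 (-0.01) was 0.05 with edgeR, 0.04 with DESeq2 and with the length correction, 0.13 without those 4 libraries as well as without mice 9955 and 9491, 0.69 with mice 8088 and 8089 alone, 0.38 with mice 8 and 10 alone, and -0.20 to 0.17 with 1 mouse left out. Acta2 (-0.15) was 0.31 and Cdh5 (-0.35) 0.07 with mice 8088 and 8089 alone. With mice 8 and 10 alone Acta2 was 0.07, Tagln (0.19) -0.07 and Cela2a (1.06) -0.22. With the adipocyte term Pecam1 (0.09) was -0.04 and Tek (0.02) -0.02, and Tek was 0.00 without mouse 9955.

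No paired analysis was possible because the animal IDs share no number between the groups. Depth limits low genes most: a gene under a signal of 0.446 in mouse 9955 rests on fewer than 3 reads.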
